A study of Caenorhabditis elegans with 12 samples.

Results

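MRG-1 binding was followed at 835 sites on the arms of *C. elegans* chromosomes II, III and V, out of 8226 sites formed by merging the MRG-1 peaks of all samples wherever they overlapped by at least 1 bp. These arm sites were chosen by their calls and their width. Each held a peak of all 6 samples, spanned less than 8000 bp after merging, and had its midpoint on an arm, taken as below 4.88 or above 12.02 Mb on chrII, below 3.72 or above 10.34 Mb on chrIII and below 5.90 or above 16.55 Mb on chrV of the ce10 build. Peak calling in all 6 samples and the merged width were therefore fixed by the choice and are given as descriptions. The comparison set was made of the 689 sites that passed the same 2 conditions in the centers of these 3 chromosomes. The sites are given by position and not by gene, because gene annotation of ce10 was not used here.

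The samples were chromatin immunoprecipitations (ChIP-seq) with an antibody against MRG-1 from whole animals, collected when most had reached the L4 larval stage, 3 replicates each of wild-type N2 animals and of *glp-4(bn2)* mutants (strain SS104). The *bn2* mutation is temperature-sensitive, and at the restrictive temperature animals are left nearly without germ cells. All animals of both strains were kept at 15° and grown as synchronized larvae at 25° on plates with OP50 bacteria, so N2 samples mix germline and somatic chromatin, and *glp-4(bn2)* samples come mainly from somatic cells. The labels do not say whether replicates were separate cultures, and p-values then measure only the spread between these samples, which may be technical. Values by sample are given below in a fixed order, N2 replicates 1 to 3 and then *glp-4(bn2)* replicates 1 to 3.

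MRG-1 is the *C. elegans* ortholog of mammalian MRG15, a chromodomain protein. The chromodomain of MRG15 recognises histone H3 methylated at lysine 36, a mark laid down over the bodies of transcribed genes. Worm autosomes have gene-dense centers with little meiotic recombination, and arms that recombine more, carry more repeats and hold more chromatin methylated at lysine 9 of histone H3. No histone modification was measured in the samples analysed here.

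The lists held between 7073 and 7737 peaks, and each peak has a fold enrichment, its pileup over the background level set at its summit by the peak caller. The number of reads is not given in the lists, and the common background level recovered from the p-values was 96.8, 88.9 and 77.2 extended reads in N2 and 68.9, 60.6 and 68.9 in *glp-4(bn2)*. Every N2 list was thus called at a higher level than every *glp-4(bn2)* list. Because folds are relative to the background of their own list, sites were compared by fold percentile, the rank of the highest fold of a site among all peaks of the same list, from 0 to 100.

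Shared MRG-1 sites were somewhat more frequent on the arms than in the centers, but they were much narrower and less of the arm sequence lay in them. The 25.5 Mb of arms held 32.7 arm sites per Mb and the 24.4 Mb of centers 28.2 sites per Mb, a ratio of 1.16. This ratio was 1.42 on chrIII, 1.01 on chrII and 0.965 on chrV. By arm, the excess was largest on the right arms of chrIII and chrII. These held 64.9 and 46.1 sites per Mb, against 36.3 and 31.4 in their centers. The left arms of chrIII (39.0 per Mb) and chrV (23.4, against 21.1 in its center) were slightly above their centers. The left arm of chrII (22.1) and the right arm of chrV (16.3) were below theirs. The share of all merged sites that passed the rule was 35.6% on the arms and 37.8% in the centers, beside 36.5% for the 4171 merged sites of the 3 chromosomes together. Nothing is read from these shares, since the rule set them.

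The direction of the density difference depended on the width of the sites. Sites under 1500 bp numbered 322 on the arms and 79 in the centers, or 12.6 and 3.24 per Mb, a ratio of 3.89. From 1500 up to 3000 bp there were 263 and 205 sites (10.3 and 8.40 per Mb, ratio 1.23). From 3000 up to 8000 bp the order turned, with 250 arm and 405 center sites (9.79 and 16.6 per Mb, ratio 0.590). Sites of at least 8000 bp, which the rule leaves out, numbered 67 on the arms and 242 in the centers (2.62 and 9.91 per Mb, ratio 0.265). The wide sites made up 7.43% of the 902 six-sample sites on the arms and 26.0% of the 931 in the centers. Without the width limit the ratio of sites per Mb was therefore 0.926 in place of 1.16, and with a limit of 3000 bp it was 1.97.

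**Figure D1:**
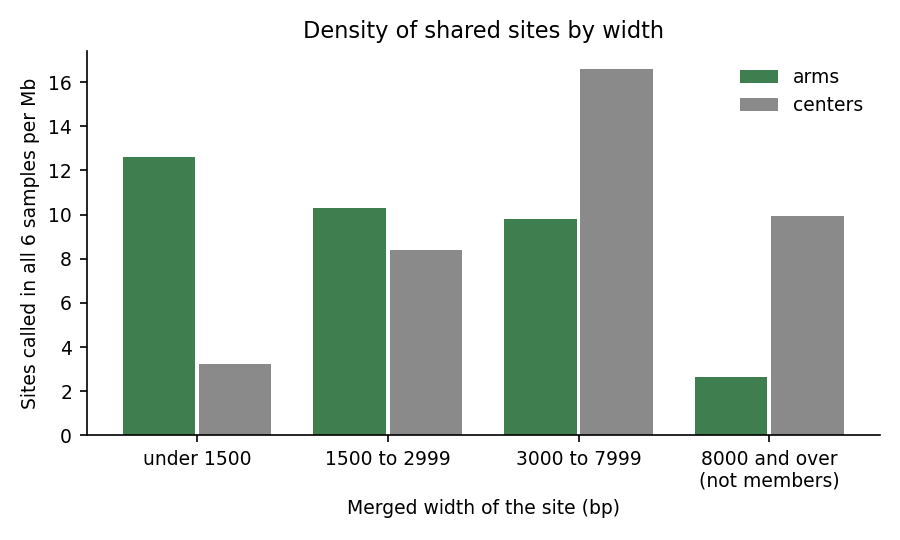
Sites called in all 6 samples per Mb of arms and of centers (vertical axis) in 4 classes of merged width (horizontal axis, bp), each bar a count over all 3 chromosomes. Arms exceeded centers at 12.6 against 3.24 per Mb under 1500 bp and fell short at 2.62 against 9.91 per Mb in sites of 8000 bp and over, which are not arm sites by the rule.

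Counted in bases, MRG-1 covered the arms less densely in every sample. All peaks of a list, shared or not, covered 112, 132, 106, 95.6, 112 and 82.5 kb per Mb of the arms and 236, 249, 231, 204, 217 and 204 kb per Mb of the centers. The highest arm value lay below the lowest center value, and the ratio was 0.474 (SD 0.0446, n = 6, below 1 in 6 of 6 samples; two-sided exact sign-flip permutation test, p = 0.03125, the smallest that 6 samples can give, a test added after the data were seen). The number of peaks per Mb gave no such difference. Its ratio of arms to centers was 1.02, 1.24, 0.989, 0.867, 0.999 and 0.778, with a geometric mean of 0.971 (n = 6, below 1 in 4 of 6 samples; two-sided exact sign-flip permutation test, p = 0.656). Without *glp-4(bn2)* replicate 3, which had the lowest ratio, this mean was 1.02. Arms thus had about as many peaks as centers, and the peaks were shorter, with medians of 745 to 830.5 bp on the arms and 1448 to 2089 bp in the centers.

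The arm sites had a median merged width of 1879 bp and ran from 440 to 7988 bp, with the middle 50% of them between 1071.5 and 3462 bp. The center sites had a median of 3540 bp. Under 1000 bp there were 185 arm sites (22.2%) and 28 center sites (4.06%). The bases that a single sample called within a site, summed over its peaks, had medians of 1398, 1632, 1326, 1263, 1504 and 1054 bp on the arms, against 3096, 3303, 2984, 2619, 2847 and 2584 bp in the centers. No arm value reached the lowest center value. The ratio was 0.466 (SD 0.0423, n = 6, below 1 in 6 of 6 samples; two-sided exact sign-flip permutation test, p = 0.03125, adjusted p = 0.0521 over the 5 comparisons of arms with centers). With 6 samples and 5 comparisons, 3 of which reached the smallest p, the Benjamini-Hochberg adjusted value could not be lower than this unless more of them had reached it. The bases called in a site lie within its merged width, which the rule limits. The test of called width therefore says only that the direction repeats over the samples. With no width limit the ratio was 0.376.

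Arm sites were also weaker by rank. The median fold of the arm sites was 2.84, 3.01, 2.78, 2.43, 2.81 and 2.33, and that of the center sites 4.07, 4.14, 3.87, 3.16, 3.65 and 3.15. As percentiles of their own list, the arm medians were 63.7, 66.0, 63.1, 58.9, 63.6 and 55.3 and the center medians 77.8, 77.6, 77.0, 73.1, 73.9 and 73.9. Both sets ranked above the middle of the lists. Nothing is read from this, since the rule needs calls in all 6 samples and a site takes its highest fold. All arm medians lay below all center medians. The difference was -13.8 percentile points (SD 2.85, n = 6, lower on the arms in 6 of 6 samples; two-sided exact sign-flip permutation test, p = 0.03125, adjusted p = 0.0521 over the 5 comparisons). It was -15.9 on chrII, -11.5 on chrIII and -15.4 on chrV, and for sites that every sample called as a single peak it was -24.4. These single-peak sites differed much in width, with medians of 1135 bp on the arms and 2678 bp in the centers. The share of arm sites above the 90th percentile of a list was 11.4% to 13.8%, little more than all peaks of a list have there by definition. In the centers this share was 18.0% to 20.6%. In all 6 samples together, 69 arm sites and 85 center sites stayed above the 90th percentile. Below the 25th stayed 2 arm sites and 1 center site, a count that the same choice tends to keep low.

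**Figure D2:**
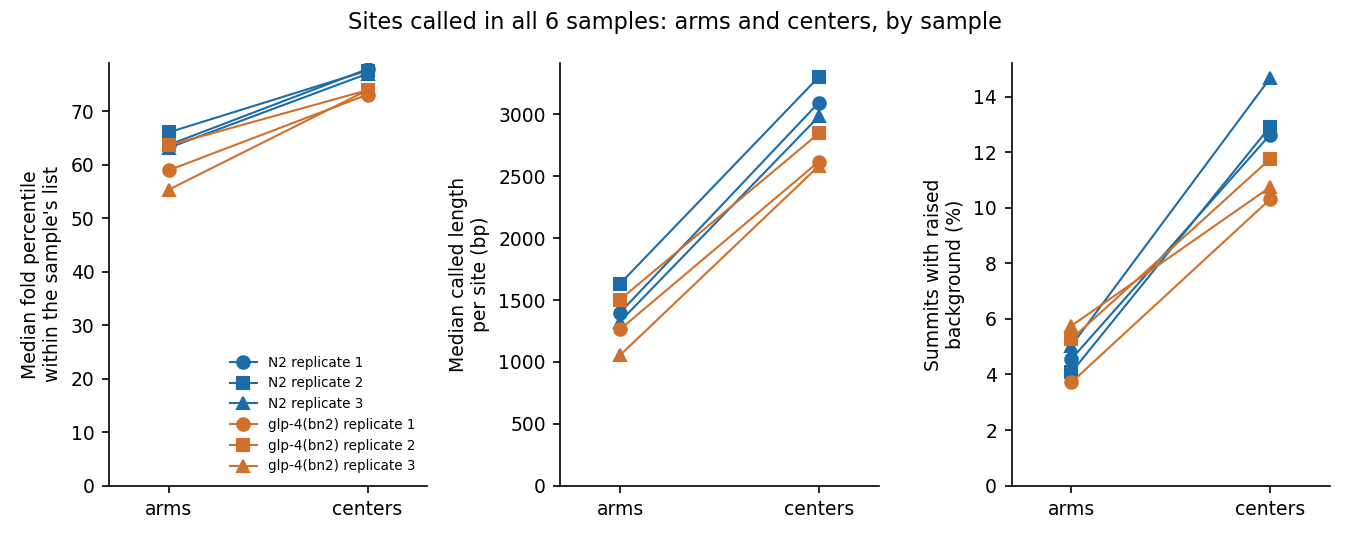
Values of the 835 arm sites and 689 center sites in each of the 6 samples, 1 line per sample: median fold percentile within the sample's list, median bases called per site (bp) and share of sites with a raised local background (percent). Every line rises from arms to centers, for example from between 55.3 and 66.0 to between 73.1 and 77.8 percentile points in the first panel.

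Width and rank went together, so sites of like width were compared next. Over the 835 arm sites, Spearman's rho between merged width and fold percentile was 0.632 to 0.658 in the 6 samples, and over the 689 center sites 0.573 to 0.606. These are descriptions across sites of the same lists, and a wide site offers more bases over which its highest fold is taken. Within width classes most of the difference between arms and centers was no longer seen. Under 1500 bp it was -1.17 percentile points (SD 2.94, lower on the arms in 4 of 6 samples, n = 6; two-sided exact sign-flip permutation test, p = 0.375). From 3000 up to 8000 bp it was -0.48 (SD 0.856, lower in 4 of 6 samples, n = 6; exact permutation test, p = 0.219). From 1500 up to 3000 bp the arm sites ranked lower in 6 of 6 samples, by -3.42 points (SD 1.27, n = 6; exact permutation test, p = 0.03125, adjusted p = 0.0938 over the 3 classes). The classes were cut from the merged width, which is part of the rule, and a class does not fully equalise width.

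**Figure D3:**
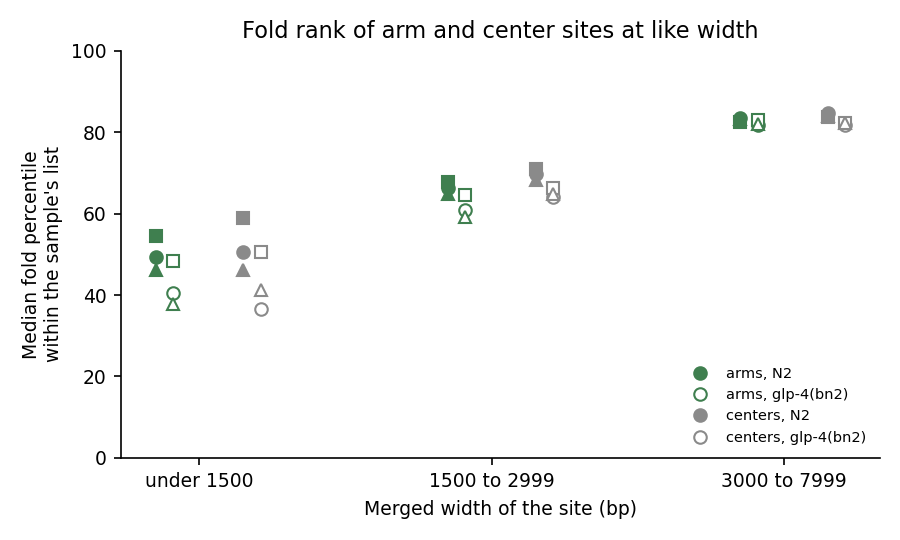
Median fold percentile within each sample's list (vertical axis) of arm and center sites in 3 classes of merged width (horizontal axis, bp), 1 point per sample, filled for N2 and open for *glp-4(bn2)*. Arm and center points overlap under 1500 bp (37.9 to 54.6 against 36.6 to 58.9) and from 3000 up to 8000 bp (81.9 to 83.4 against 81.7 to 84.8).

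The peak caller raises the background of a peak where its control or its surroundings are high. The background at each summit was recovered from the fold and the p-value, and called raised when it was over 1.1 times the common level of the list. It was raised at 4.55, 4.07, 5.03, 3.71, 5.27 and 5.75% of the arm sites and at 12.6, 12.9, 14.7, 10.3, 11.8 and 10.7% of the center sites. The difference was -7.44 percentage points (SD 1.72, n = 6, lower on the arms in 6 of 6 samples; two-sided exact sign-flip permutation test, p = 0.03125, adjusted p = 0.0521 over the 5 comparisons). It was present in each width class, at -5.91, -8.37 and -8.79 points from narrow to wide (6 of 6 samples in each, exact permutation test, p = 0.03125, added after the data were seen). With raised defined as over 1.5 times the common level it was -0.872 points. A raised background lowers the fold of a site, and here it was more frequent in the centers, whose sites had the higher folds. Its part in the difference of ranks was not tested.

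Most arm sites were simple in shape. A single peak in every sample made up 454 of them (54.4%), compared with 315 of the center sites (45.7%). In these single-peak sites the 6 summits spread over a median of 180.5 bp on the arms and 243 bp in the centers. The sites themselves had median widths of 1135 and 2678 bp. The share of sites that a sample split into more than 1 peak was 28.0, 12.8, 27.7, 25.4, 17.2 and 28.4% on the arms, lowest in the second replicate of each strain. It differed from the centers by -2.53 percentage points (SD 1.77, n = 6, lower on the arms in 5 of 6 samples; two-sided exact sign-flip permutation test, p = 0.0625, adjusted p = 0.0781 over the 5 comparisons). This difference did not pass the threshold of 0.05, and on chrII it had the other sign, at 1.81 points. It was -0.116 points with peaks of a q-value of at most 1e-05 and -1.41 without N2 replicate 2.

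The strongest arm sites reached the very top of every list. On each arm the site with the highest lowest percentile over the 6 samples is described, since these carry the clearest MRG-1 signal outside the centers. On the left arm of chrII this was chrII:2751274-2752903, only 1630 bp wide, with folds of 12.1, 12.4, 11.4, 12.9, 15.4 and 11.4. It was 1 peak in every sample, its 6 summits lay within 41 bp, and its lowest percentile was 99.9. Its nearest fellow arm site was 34.4 kb away. On the right arm of chrII the strongest site was chrII:12766443-12769906, of 3464 bp, with folds of 11.8, 12.2, 10.7, 11.4, 12.8 and 9.79. Both strains thus showed these chrII sites at nearly the same level of their lists.

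The strongest site of the right arm of chrIII, chrIII:12870728-12878133, was much wider at 7406 bp, and its folds were 11.8, 11.3, 10.6, 9.33, 11.5 and 9.09. On the left arm of chrIII the leading site, chrIII:3626879-3631549, reached folds of 8.60, 9.18, 8.22, 7.35, 9.12 and 6.82, the weakest of the 6 leading sites in each sample, and was split into 2 or 3 peaks in all samples. On chrV the leading sites were chrV:773334-775333 on the left arm, with folds of 9.86, 10.4, 8.75, 7.80, 10.0 and 7.84, and chrV:19117189-19120070 on the right arm, with 9.82, 10.1, 9.28, 10.4, 12.1 and 8.86. Both chrV sites stood apart from other arm sites, by 84.8 and 68.9 kb.

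The 6 arms differed more in how many sites they held than in how strong these were. The right arm of chrIII held 223 sites at 64.9 per Mb, and the right arm of chrII 150 at 46.1 per Mb. The left arm of chrIII followed with 145 sites (39.0 per Mb), then the left arms of chrV with 138 (23.4 per Mb) and of chrII with 108 (22.1 per Mb), and last the right arm of chrV with 71 (16.3 per Mb). Density thus spanned 64.9 to 16.3 per Mb, while the median merged width of an arm stayed between 1717 bp on chrV left and 2205.5 bp on chrII left. The median percentile of an arm, averaged over the 6 samples, was 57.7 on chrII right, 59.3 on chrV right, 61.0 on chrIII left, 62.8 on chrIII right, 63.7 on chrII left and 64.3 on chrV left. Over samples it ranged from 50.1 to 62.3 on chrII right and from 60.2 to 66.5 on chrV left, so neighbours in this order overlapped widely. All 6 arms lay below all 3 centers, whose averages were 73.6 on chrIII, 76.1 on chrII and 78.2 on chrV.

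Each arm was divided into 3 stretches of equal length, and sites of the outer stretches, pooled over the 6 arms, were wider and ranked higher than those of the inner stretches. The outer stretches held 258 sites (30.3 per Mb, median width 2290.5 bp), the middle ones 261 (30.7 per Mb, 1785 bp) and the inner ones 316 (37.1 per Mb, 1612 bp). The median percentile was 67.6, 68.6, 65.5, 61.7, 65.4 and 60.5 in the outer stretches and 62.4, 65.5, 61.3, 55.1, 59.96 and 51.9 in the inner ones. Outer sites ranked above inner sites by 5.51 points (SD 1.92, n = 6, from 3.03 to 8.59, higher in 6 of 6 samples; two-sided exact sign-flip permutation test, p = 0.03125), and their called width was 1.48 times as large (higher in 6 of 6 samples, exact permutation test, p = 0.03125). Both tests were chosen after the data were seen, and the ranks of outer and inner sites were not compared at like width. The called width is bounded by the width limit of the rule here too. The rank difference was positive on 5 of the 6 arms, from 3.99 points on chrII left to 10.5 on chrV right, and was -1.21 on chrIII left. The median merged width was larger in the outer stretch on all arms except chrV left, where it was 1856 bp in the outer and 2150.5 bp in the inner stretch. The inner stretch held more sites mainly on chrIII, with 68 against 38 on the left arm and 82 against 55 on the right, and it held fewer on the right arms of chrII (43 against 47) and chrV (19 against 28). In 10 finer stretches neither width nor rank rose steadily toward the end. The median width was 2177.5 bp in the outermost of them and highest at 2704 bp in the third, and the mean percentile was 64.6 in the outermost and highest at 70.7 in the fifth.

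**Figure D4:**
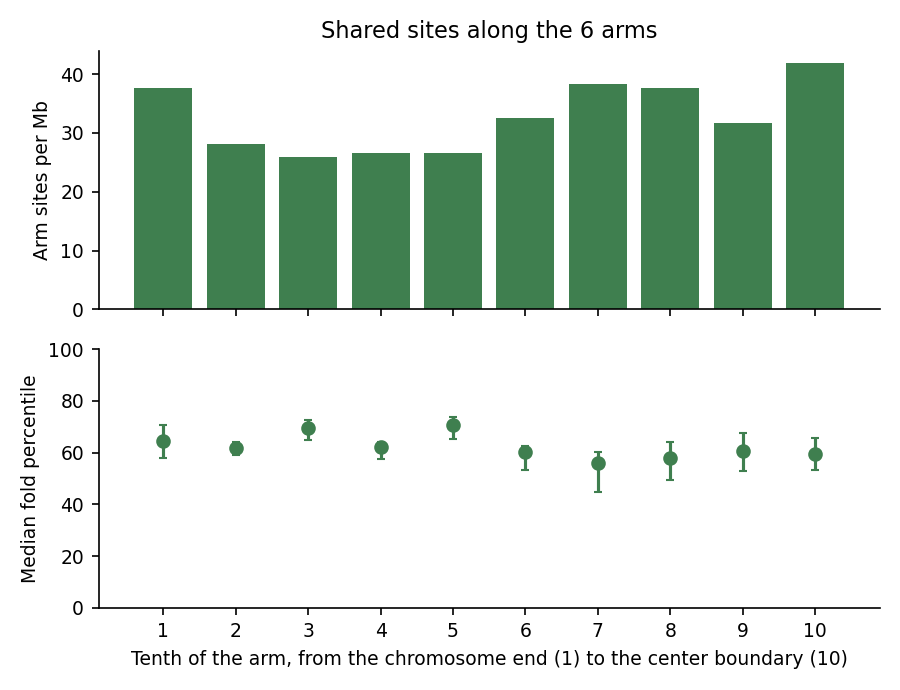
Arm sites per Mb (upper panel) and their median fold percentile (lower panel) in 10 equal stretches of the arm, counted from the chromosome end (1) to the boundary with the center (10), over all 6 arms. Each point of the lower panel is the mean of the medians of the 6 samples, with bars from the lowest to the highest sample. Density was 37.6 per Mb in the outermost stretch, fell to 25.8 in the third and reached 41.9 in the last, and the mean percentile was highest at 70.7 in the fifth and lowest at 56.0 in the seventh.

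MRG-1 sites were called close to the chromosome ends. The outermost arm site of chrV, chrV:5634-9134, had its midpoint 7.38 kb from the left end and was strong in all samples, with folds of 8.12, 7.06, 6.28, 5.86, 6.84 and 6.14 and percentiles of 88.9 to 95.3. At the right end of chrIII, chrIII:13755475-13762703 spanned 7229 bp with folds of 4.68, 4.80, 4.63, 4.00, 4.19 and 3.36. Each N2 sample called it as 1 peak, whereas the *glp-4(bn2)* samples called it as 4, 4 and 2 peaks. At the right end of chrV, chrV:20848865-20852221 had folds of 3.35 to 4.78. The outermost site on the left of chrII, chrII:19499-22113, was higher in *glp-4(bn2)*, with folds of 1.76, 1.86 and 1.64 in N2 and 2.45, 3.01 and 2.26 in *glp-4(bn2)*, and its percentiles did not overlap between the strains. Its background was 1.14, 1.17 and 1.17 times the common level in N2 and 1.03, 1.06 and 1.12 times in *glp-4(bn2)*. At the left end of chrIII the outermost site was chrIII:73442-75725, described below among the isolated sites. On the right of chrII the order was the other way at chrII:15241554-15243154, with N2 percentiles of 68.8 to 73.0 and *glp-4(bn2)* percentiles of 50.9 to 60.7. End sites therefore shared neither a level nor a direction between the strains.

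Arm sites lay close to one another. The gap from an arm site to the nearest arm site had a median of 1056 bp, and 514 sites (61.6%) had a neighbour within 2 kb. Center sites were farther apart, with a median gap of 3301 bp and 307 sites (44.6%) within 2 kb. When six-sample sites of any width counted as neighbours, these shares were 63.1% on the arms and 54.7% in the centers. The median gaps were then close, at 1034 bp on the arms and 1162 bp in the centers. Most of the contrast in median gap, and part of that in the shares, thus goes with the wide center sites. The width limit removes these from the count of neighbours. With gaps under 2 kb joined, the arm sites formed 194 runs of at least 2 sites and 321 lone sites. The 14 runs of at least 5 sites held 74 of them, and the longest was a run of 7 over 16.7 kb at chrV:102598-119330. Sites in these 14 runs had a median percentile of 56.3 and a median width of 1664.5 bp, below the 66.6 and 2054 bp of lone sites.

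Clusters were also seen at a larger scale. Of 106 windows of 250 kb on the arms, 95 held at least 1 arm site, with a median of 7 in those, and the 10 fullest windows held 218 sites (26.1%). The fullest were chrIII:11750001-12000000 with 28 sites (median width 1763 bp) and chrIII:12500001-12750000 with 26 (median width 1197 bp), both on the right arm of chrIII. Their median percentiles over samples were 49.6 to 60.2 and 53.7 to 66.3, beside 55.3 to 66.0 for all arm sites. At the other extreme, 89 arm sites (10.7%) were over 20 kb from the next. The most isolated was chrV:3276963-3278269, 420 kb from its nearest fellow, followed by chrIII:73442-75725 at 159 kb and chrII:2056001-2059289 at 139 kb for their chromosomes. Isolated sites were not of one kind, since the chrII site had folds of 7.93, 8.14, 7.60, 7.47, 8.31 and 5.98 and the chrIII site only 1.93, 2.44, 1.85, 1.67, 2.09 and 1.62.

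The comparison of the strains asks how alike the ranks of these sites are in animals with a germline and animals with almost none. That both strains called every site was fixed by the rule. In such bulk samples, fewer cells with MRG-1 at a site and less MRG-1 per cell cannot be told apart. The order of the arm sites by fold was similar in all lists, and in every case more alike within a strain than between strains. Spearman's rho over the 835 sites was 0.891 to 0.948 for the 6 pairs of samples within a strain and 0.785 to 0.840 for the 9 pairs between strains. The median percentile of the arm sites was 64.3 ± 1.53 in the N2 samples and 59.3 ± 4.16 in the *glp-4(bn2)* samples (SD, n = 3 each). The strains overlapped only in that the lowest N2 value, 63.1, lay below the highest *glp-4(bn2)* value, 63.6. The difference was 5.00 points (two-sided exact permutation test, p = 0.2, adjusted p = 0.3 over the 3 strain comparisons). With 3 against 3 samples this test cannot go below 0.1, so it could not decide whether the strains differ. Ranked among the 1524 six-sample sites of the 3 chromosomes in place of all peaks of a list, the difference turned to -0.733 points.

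The distance between arms and centers was not detectably different in the strains. It was -13.2 ± 1.43 points in the N2 samples and -14.4 ± 4.15 in the *glp-4(bn2)* samples (SD, n = 3 each; difference 1.16, two-sided exact permutation test, p = 0.8). The direction of that difference turned without *glp-4(bn2)* replicate 3 (-0.467), on chrV alone (-1.50), under a width limit of 3000 bp (-0.325) and in the ranking among six-sample sites (-2.20). Of all peaks on the 3 chromosomes, 53.0 ± 3.08% were on arms in the N2 samples and 47.8 ± 3.13% in the *glp-4(bn2)* samples (SD, n = 3 each). The lowest N2 share, 50.9%, lay below the highest *glp-4(bn2)* share, 51.1%. The difference was 5.11 percentage points, on which the test could not decide either (two-sided exact permutation test, p = 0.2, adjusted p = 0.3). Without N2 replicate 2, the list with the highest share, it was 3.34 points, and counted in called bases it was 1.16 points. Outside the shared sites, merged sites with calls from 2 or 3 samples of a single strain were counted. They made up 13.5% of all merged sites on the arms for N2 and 6.01% for *glp-4(bn2)*, and 13.5% and 8.72% of those in the centers.

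Site by site, all 3 N2 percentiles lay above all 3 *glp-4(bn2)* percentiles at 222 arm sites (26.6%), beside 28.1% over the 1524 six-sample sites of the 3 chromosomes. The order was reversed at 99 arm sites (11.9%), beside 12.6%. At the other 514 sites the strains overlapped. The arm sites were thus close to the background in both directions, and these counts are no result about the arms. Ranked among the six-sample sites, 135 arm sites (16.2%, beside 18.1%) were higher in N2 and 142 (17.0%, beside 16.5%) in *glp-4(bn2)*, so the excess toward N2 depended on the peaks against which sites were ranked. Of the 222 and 99 sites, 132 and 94 kept their direction without overlap and none turned. By arm, the share higher in N2 ran from 19.7% on chrV right to 36.2% on chrV left. The sites higher in *glp-4(bn2)* were rarest among narrow arm sites, at 6.83% under 1500 bp, compared with 17.7% of the 79 narrow center sites, a difference that was not tested.

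**Figure D5:**
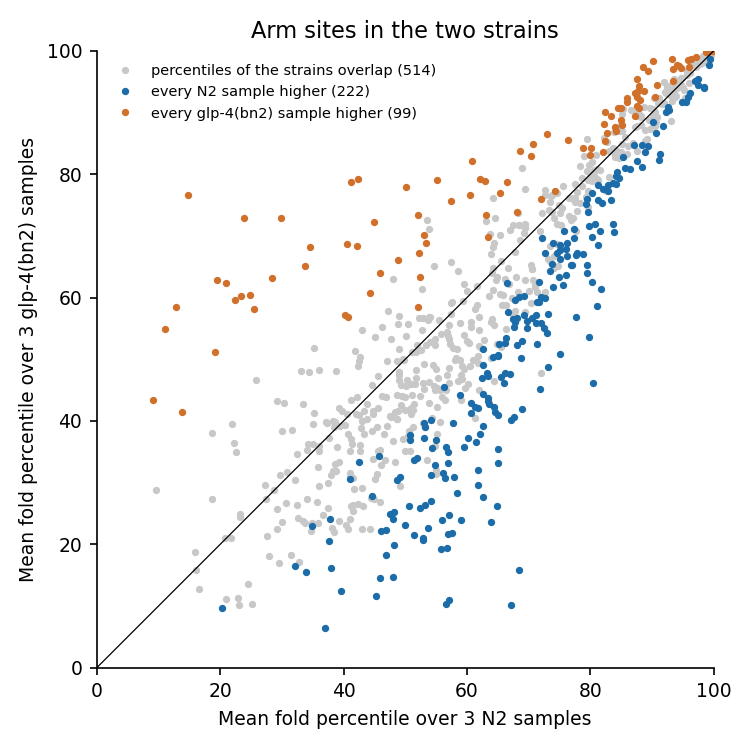
Mean fold percentile of each arm site over the 3 N2 samples (horizontal axis) and over the 3 *glp-4(bn2)* samples (vertical axis), 1 point per site. The 222 sites with all N2 percentiles higher lie under the diagonal, the 99 with all *glp-4(bn2)* percentiles higher lie over it, and the 514 others lie between and around them.

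A few arm sites differed widely between the strains. They were picked for the largest gap between the percentiles of the strains, so their values are descriptions. Farthest apart in favour of N2 was chrII:4458003-4460441, of 2439 bp, with folds of 3.002, 3.55 and 2.70 in N2 and 1.65, 1.64 and 1.51 in *glp-4(bn2)*. Its N2 percentiles were 61.2 to 73.2 and its *glp-4(bn2)* percentiles 4.44 to 14.2, a gap of 47.0 points. The bases called there were 1903, 2388 and 2135 in N2 and 563, 733 and 341 in *glp-4(bn2)*, so fewer bases were called as well. The background of this site was raised in N2 replicate 3 and in all 3 *glp-4(bn2)* samples, to at least 1.14 times the common level in each. A raised background lowers the fold, and its part in this gap was not tested. At chrV:192559-193840 the folds were 2.69, 2.73 and 2.49 in N2 and 1.78, 1.81 and 1.75 in *glp-4(bn2)*, and at chrIII:12244959-12246163 they were 2.87, 2.55 and 2.31 against 1.63, 1.31 and 1.73. Both sites were of middle rank in N2, with percentiles of 50.1 to 64.5, and had percentiles of at most 25.1 in *glp-4(bn2)*, with gaps of 30.5 and 29.2 points. Their background was raised only in *glp-4(bn2)* replicate 2, at 1.21 and 1.31 times the common level.

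In the other direction the widest gap, 41.9 points, was at chrIII:436476-438524, with folds of 1.56, 1.59 and 1.68 in N2 and 2.38, 2.68 and 2.40 in *glp-4(bn2)*. At chrV:16966829-16968186 the folds were 1.40, 1.93 and 1.57 in N2 and 3.88, 3.97 and 3.15 in *glp-4(bn2)*, a gap of 40.2 points. The third was the most isolated site, chrV:3276963-3278269, with folds of 1.85, 2.04 and 1.47 in N2 and 3.21, 3.48 and 3.06 in *glp-4(bn2)*. All of these sites were weak in N2, with percentiles of at most 38.9, and they reached 57.3 to 79.3 in *glp-4(bn2)*. Their background was raised only at chrIII:436476-438524 in N2 replicate 1, at 1.11 times the common level. Each of the 6 sites stayed without overlap when ranked among the six-sample sites.

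Sites near the limits of the rule are given once. The widest arm site, chrIII:3320191-3328178, spanned 7988 bp with percentiles of 86.3 to 98.7, and the narrowest arm site beyond the limit, chrIII:10640765-10648801, spanned 8037 bp with percentiles of 84.3 to 88.4. At the boundaries with the centers, chrII:4857136-4859412 (percentiles 71.8 to 74.9) was the last arm site and chrII:4888823-4891846 (58.1 to 78.0) the first center site on the left, and chrII:12023438-12024753 (94.3 to 97.0) and chrII:12004736-12006758 (39.4 to 83.0) were their counterparts on the right. On chrIII these pairs were chrIII:3661157-3664489 (83.4 to 89.8) and chrIII:3790095-3792990 (71.9 to 81.7) on the left, and chrIII:10351772-10357855 (81.0 to 89.9) and chrIII:10330996-10338077 (88.5 to 94.0) on the right. On chrV they were chrV:5839803-5842798 (4.71 to 71.0) and chrV:5913535-5917965 (93.4 to 98.5) on the left, and chrV:16803389-16805793 (39.5 to 61.4) and chrV:16545052-16545794 (26.5 to 64.7) on the right.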

How the data were processed

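MRG-1 ChIP-seq peak lists of 6 samples were analysed, and 6 input samples were not analysed here. Per the submitters' processing notes and the methods, the authors aligned the read pairs with Bowtie2 2.3.2 (build ce10). Each replicate had its own MACS2 2.1.0 run, with a q-value limit of 0.05, reads extended to 300 bp and no fragment model. The control used in peak calling is not named in the paper's text. Each list deposited by the authors gives peak positions and summits, a fold enrichment (a linear ratio), the p-value and the q-value as −log10, and a score that is a rounded multiple of the −log10 q-value. Folds and q-values were ranked or filtered within a list only, and the score was not used.

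Peaks were merged at an overlap of at least 1 bp and the rule given in the text was applied. The last called base stood for the end of each chromosome. Percentiles are mid-ranks of the highest fold of a site among all peaks of a list. The background at a summit was solved from the fold, with a pseudocount of 1, and the Poisson p-value. Depth in reads is unknown, so no counting intervals are given, and lists called at a lower level need a higher fold to call a base. Arms and centers were compared by two-sided exact sign-flip permutation over the 6 samples (5 comparisons) and strains by exact permutation of the labels (3 comparisons), with Benjamini-Hochberg adjustment within each family. Over all 8 comparisons together, the 3 smallest adjusted p were 0.0833 each.

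Replicate numbers are shared between the strains. Whether they pair the samples was checked only by correlating the deviations of arm-site percentiles from the strain means. Such a correlation over sites does not test for a shift common to all sites. The numbers were not taken as pairs. The sites named are, by rule, the strongest on each arm, those with the largest gaps between the strains, the most isolated on each chromosome, those nearest the ends and nearest the limits of the rule, and the 2 windows with most arm sites. The arm sites, the rules and the tests were chosen with earlier results of these data known. Alternatives were other q-values, overlaps, widths, boundaries, rankings, summit windows, single chromosomes and each sample left out. Scripts were tested on simulated data. Python 3.11.15, numpy 2.4.6, pandas 2.3.3, scipy 1.17.1 and matplotlib 3.10.9 were used.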

Additional observations from a re-analysis of the deposited data

How the results depend on the processing

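Of 143 values recomputed from all 6 samples, 123 stayed on the same side of the threshold with the same sign, or within 1.5 times the value or 1 SD, 11 changed direction and 9 moved otherwise. Of 66 values with 1 sample omitted, 64 were kept and 2 changed direction. With 5 samples left, no exact sign-flip permutation test can go below p = 0.0625, so these were judged by direction alone and say nothing about significance. Other widths and overlaps could not change the density of peaks or the arm share of peaks, and windows around summits were not run for the called width. The merging joins neighbouring peaks, so the number and width of sites depend on it. Read depth and the input samples, which would tell how well narrow arm sites are resolved, were not analysed here.

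The site density ratio of 1.16 became 1.97 under a width limit of 3000 bp, 0.926 with no width limit and 0.965 on chrV alone, and counted in merged bases it was 0.741, or 0.466 with no width limit. The peak density ratio of 0.971 was 1.01 with boundaries moved 0.5 Mb toward the middle, 1.04 on chrIII alone and 0.474 in called bases, and lay between 0.925 and 1.02 with each sample left out. The difference in the share of sites with several peaks, -2.53 percentage points, was 1.81 on chrII, -4.88 on chrIII, -5.46 on chrV, -3.17 under 3000 bp and -8.20 with no width limit, where all but the first passed the unadjusted threshold (exact permutation tests). It was close to 0, and did not pass, at a q-value of at most 1e-05 (-0.116), with boundaries moved toward the ends (-0.442) or the middle (-0.759) and with summit windows (-0.638), and ranged from -3.71 to -1.41 with each sample left out. The fold percentile difference of -13.8 was -1.17 in sites under 1500 bp and -0.48 from 3000 up to 8000 bp, where it no longer passed. It was -8.02 under a limit of 3000 bp and ranged from -15.4 to -12.9 with each sample left out. The strain difference of the distance between arms and centers, 1.16 points, was -0.325 under 3000 bp, -1.50 on chrV and -2.20 ranked among six-sample sites, and ranged from -0.467 to 2.97 with each sample left out. The strain difference of the arm-site percentile, 5.00 points, was -0.733 in that ranking, and the share of arm sites higher in N2 fell from 26.6% to 16.2%. In other settings the percentile difference reached p = 0.1, the smallest that 3 against 3 samples allow (exact permutation tests). These were a q-value of at most 1e-05 (7.10), no width limit (4.87), boundaries moved toward the middle (5.49) and chrIII alone (6.29). The strain difference in the arm share of peaks, 5.11 percentage points, ranged from 3.34 to 6.74 with each sample left out, lowest without N2 replicate 2. It reached p = 0.1 (exact permutation tests) at a q-value of at most 1e-05 (5.70), on chrII (6.09) and on chrV (4.53). The cause was not tested, other than that changed width limits and rankings change by construction which sites are counted or compared.

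With the replicate block, the strain differences were the same by construction, at 5.00, 1.16 and 5.11, and exact sign-flip permutation over 3 pairs gave p = 0.25, 1 and 0.25, where 0.25 is the smallest that 3 pairs allow. The deviations of samples with the same number correlated at -0.0512, 0.0978 and 0.0676 over the 835 arm sites, and those with different numbers at -0.107 to 0.0567. In both strains replicate 2 was highest and replicate 3 lowest in arm-site percentile and in arm share of peaks. In every pair of the same number, N2 was the higher in both measures. Whether the numbers pair the samples thus remains undecided.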
